A study of Mus musculus with 6 samples.

Results

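Ionotropic glutamate receptors of the AMPA class and their transmembrane AMPA receptor regulatory proteins (TARPs) were followed in primary mouse neurons in which Kcna1 was activated with CRISPRa. The 10 genes were chosen by name from the 50508 gene symbols of the files: the receptor subunits Gria1, Gria2, Gria3 and Gria4, and the TARPs Cacng2, Cacng3, Cacng4, Cacng5, Cacng7 and Cacng8. All 10 were listed, and all 10 were above 0 in at least 1 library and were tested. RNA came from 3 libraries of neurons treated with sgLacZ and 3 treated with sgKcna1. All 6 libraries came from neurons of newborn C57Bl/6J pups, and the neurons were given, by lentivirus, a nuclease-dead Cas9 fused to the activator VP160 under the Ef1alpha promoter, so the groups shared the activator and differed in the guide. The guide of the sgLacZ group is directed at LacZ, a bacterial gene, and that of the sgKcna1 group, sg19, at the promoter of Kcna1. The Ef1alpha promoter is not restricted to neurons, so other cells of the cultures could carry the construct. The labels give hippocampus as the region and the methods give cortex, and the sequencing methods give RNA extraction at 10 days in vitro while the culture methods give a later age.

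AMPA receptors are tetramers that carry most of the fast excitatory current in the brain, and their subunit make-up sets their conductance, trafficking and permeability to calcium. Inclusion of GluA2, the product of Gria2, whose RNA is edited in the pore, makes the receptor nearly impermeable to calcium. TARPs bind the receptors as auxiliary subunits, bring them to the surface, slow their closing and tether them to postsynaptic scaffolds. Stargazin, from Cacng2, is the prototype of the family, and Cacng8 is known for high expression in the hippocampus.

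The guide that distinguishes the groups matched the reference genome NCBIM37 (mm9) next to an NGG PAM upstream of Kcna1, and its closest windows upstream of Cacng4 and Gria1 are shown to let the guide be read against members described below. Lower-case letters equal the guide and capitals differ from it, and each sequence is 5′ to 3′ on the strand given.
Kcna1, 0 mismatches, chr6:126595930-126595949, plus strand, intergenic, 111 bp before the start: agtcaatgatcacatcctcc
Cacng4, 10 mismatches, chr11:107603575-107603594, plus strand, in an intron of Cacng4, 182 bp upstream of where a shorter transcript starts: GAtAaaAgGtcCcaAAcAGc
Gria1, 8 mismatches, chr11:56826147-56826166, plus strand, in an intron of Gria1, 382 bp upstream of where a later transcript starts: aTtAaatgTGcacatGTAGc
Over all annotated transcript starts (GENCODE vM1) of the 10 genes, with windows of 500 bp before the start, NGG PAMs on both strands and no gaps, the fewest mismatches ranged from 8 in Gria1, Gria4 and Cacng2 to 11 in Gria2. Of the 22238 protein-coding genes scanned in the same way, 12.1% held a window with 8 or fewer mismatches. This describes the windows searched and says nothing of sites elsewhere.

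Depth and labels were checked first. The values are whole numbers per gene that sum to between 999047 and 999717 in a library, so they were treated as per-million values rounded by the authors, with no record of how many reads lie behind them. The files come from a kit that reads the 3′ end of transcripts, and values were not divided by length. Kcna1, the targeted gene, was listed at 16 in all 3 sgLacZ libraries and at 68, 47 and 65 in the sgKcna1 libraries, with no overlap. The defining neuronal markers Rbfox3, Map2, Snap25, Syt1 and Tubb3 were above 0 in every library. Across the 19504 genes tested with limma on log2(value + 1), 226 (1.16%) had a Benjamini-Hochberg adjusted p under 0.05, of which 30.1% were higher in sgKcna1. That percentage was 56.0% after median-of-ratios rescaling and 59.6% after upper-quartile rescaling. The number itself was 0 without sgLacZ replicate 1 or 2 or any one of the sgKcna1 libraries, where 3332 to 3853 genes had an unadjusted p under 0.05, and 2711 without sgLacZ replicate 3. The methods give a general statement of independent repetitions for the study, but for these libraries separate cultures are not stated, so p-values measure the spread between these libraries, which may be technical.

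In the control neurons the receptor subunits fell into a high pair and a low pair. Gria1, which encodes GluA1, a subunit tied to activity-dependent insertion at synapses, was listed at 295, 293 and 319 in sgLacZ, in per-million units. Gria2 was listed at 308, 271 and 263 in the same libraries, and the ranges of both genes overlapped. Gria3, which encodes GluA3, was lower, at 53, 61 and 57. Gria4, which encodes GluA4, a subunit typical of young neurons and some interneurons, stood at 19, 17 and 17. The levels of Gria3 and Gria4 did not overlap with each other or with the high pair.

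Of the TARPs in sgLacZ, Cacng4, Cacng7 and Cacng2 made up nearly the whole of the summed value. Cacng4 encodes gamma-4, a TARP known for expression in the developing brain, and was listed at 242, 224 and 202. Cacng7, encoding a TARP of the second type, followed at 204, 173 and 145, a range that overlapped that of Cacng4. Cacng2 was listed at 114, 100 and 93, below both. Cacng5, the other TARP of the second type, stood at 7, 11 and 6.

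Cacng3 and Cacng8 were at or near 0. Cacng3, a close relative of stargazin, was listed at 1, 0 and 1 in sgLacZ and at 1, 2 and 1 in sgKcna1. Cacng8 was listed at 1 in sgLacZ replicate 1 and at 0 in the other 5 libraries, so its fold change is plotted below but not interpreted. A low entry here does not by itself show a scarce transcript: the housekeeping genes Gapdh and Ppia were listed at only 3 to 17 and 6 to 14, while Actb was listed at 8022 to 11652. Comparisons of level between genes therefore concern the listed values, which are per-million and not per length.

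In sgKcna1 the order of the genes by mean value was the same except that Cacng7 stood above Cacng4. Gria1 exceeded Gria2 in 2 of 3 sgLacZ libraries and in 3 of 3 sgKcna1 libraries, and in sgKcna1 the ranges of the pair no longer overlapped. Cacng4 exceeded Cacng7 in 3 of 3 sgLacZ libraries and in 2 of 3 sgKcna1 libraries, with overlapping ranges in both groups.

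**Figure D1:**
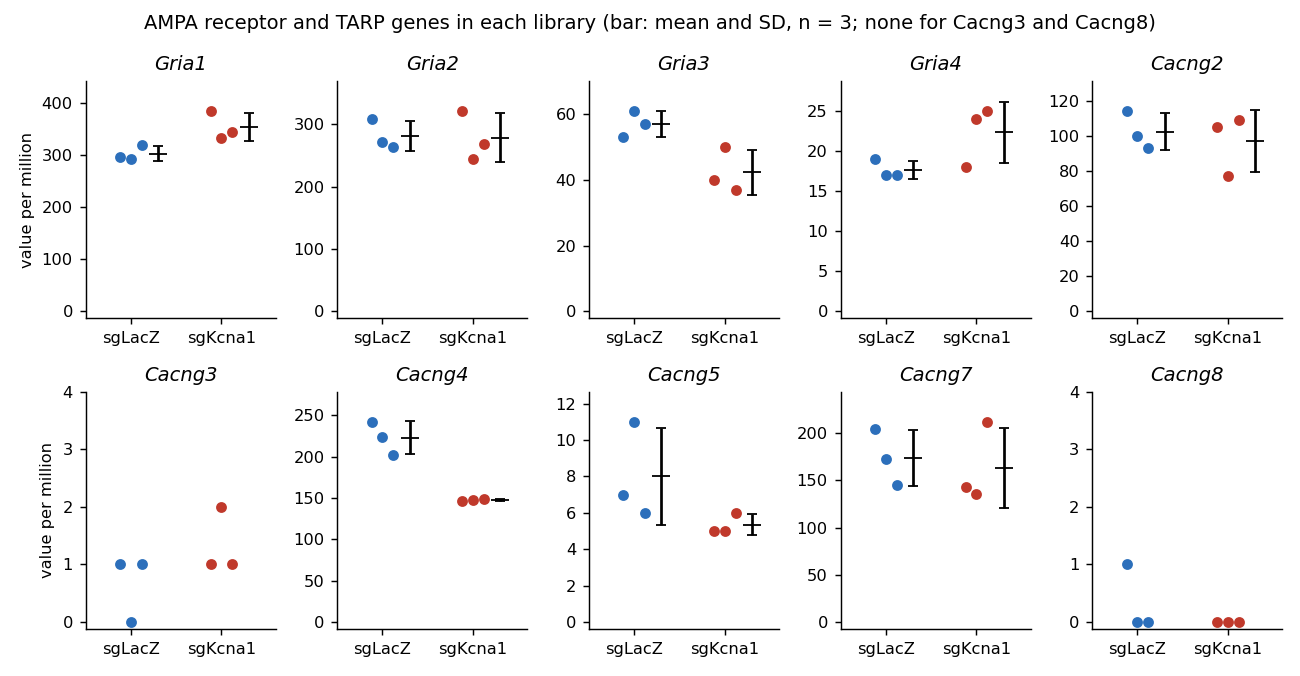
Values in per-million units of each gene (y axis, from 0) in the 3 sgLacZ libraries (blue) and the 3 sgKcna1 libraries (red), with the mean and SD in black except for Cacng3 and Cacng8. The sgKcna1 values of Cacng4 lie between 146 and 149, all below the lowest sgLacZ value of 202, while those of Gria2, Cacng2 and Cacng7 overlap the sgLacZ values.

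The comparison of sgKcna1 with sgLacZ asks how far a guide meant to raise Kcna1 leaves other transcripts as they were. Cacng4 was lower in sgKcna1 and was the single member past the threshold, 1 of 10 genes against 0.81% of all genes tested called lower. Of the 10 genes, 0 were called higher, against 0.349% of all genes, and at an unadjusted p under 0.05 there were 3 (Gria1 higher, Gria3 and Cacng4 lower), beside 23.2% of all genes tested. The median log2 fold change of the 10 genes, which include Cacng3 and Cacng8 at or near 0, was -0.10. It was -0.02 for all genes tested and -0.06 for all genes averaging at least 10. Of the 7 members averaging at least 10 over the libraries, the same 1 was called, beside 2.1% of all genes at that level (0.398% higher, 1.7% lower). Groups did not overlap for 3 of the 10 genes, 1 higher (Gria1) and 2 lower (Gria3 and Cacng4), beside 22.2% of all genes tested (8.98% higher, 13.3% lower). All 3 are among the 7 members averaging at least 10, beside 39.8% of all such genes (15.9% higher, 23.9% lower).

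Cacng4 was listed at 146, 147 and 149 in sgKcna1, against 202 to 242 in sgLacZ. The means were 147 ± 1.53 and 223 ± 20.03 (SD, n = 3 each), a level 0.665 times that of the control on the log2(value + 1) scale. All 3 sgKcna1 libraries were lower than all 3 sgLacZ libraries. The log2 fold change was -0.59 (SE, standard error, 0.09, 95% interval -0.81 to -0.37) with an adjusted p of 0.0496 from limma. The change in level kept its direction in all alternatives, between -0.66 and -0.47, but the adjusted p lay on the threshold. It was 0.135 without sgLacZ replicate 1, 0.143 without sgLacZ replicate 2, 0.0179 without sgLacZ replicate 3, and 0.112, 0.117 and 0.130 without sgKcna1 replicates 1, 2 and 3. It was 0.0508 with a pseudocount of 0.5 and 0.112 without an intensity trend, and 0.111 with the replicate number as a block. In the other 7 alternatives, which changed the low-value filter, the scaling or the variance prior, it was 0.000438 to 0.0245, so that 8 of 16 kept the call.

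**Figure D2:**
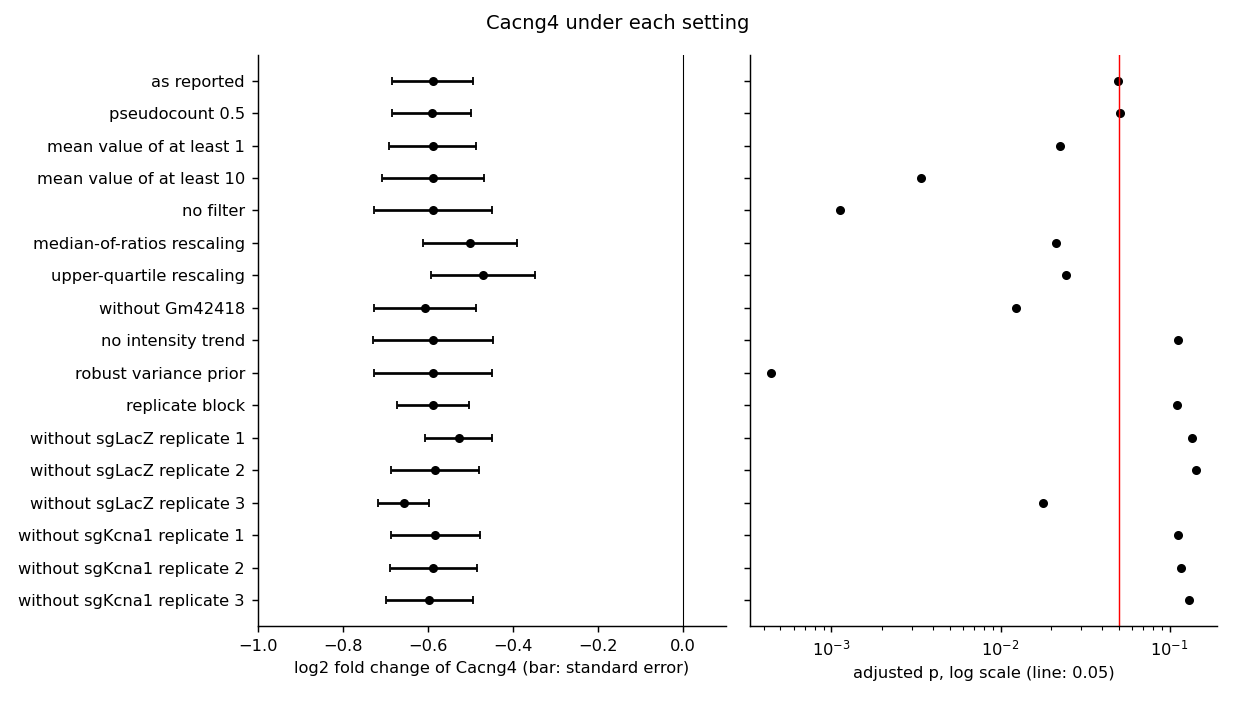
Left, log2 fold change of Cacng4 (sgKcna1 minus sgLacZ) with its standard error under each setting. Right, the adjusted p from limma on a log axis with a line at 0.05: the change in level stays between -0.66 and -0.47, while the adjusted p falls on both sides of the line.

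Some markers of astrocytes and of the oligodendrocyte lineage were lower along with Cacng4, and the counts of markers stand beside 1.16% of all genes called and 23.2% at an unadjusted p under 0.05. Of 8 astrocyte markers, 3 were called lower in sgKcna1 and 0 higher (Aqp4, a water channel, Sox9 and Aldoc), and the summed astrocyte value was 699 to 828 in sgLacZ and 497 to 515 in sgKcna1. Of 7 oligodendrocyte lineage markers, 1 was called lower (Olig2) and 0 higher, 6 had an unadjusted p under 0.05 (5 lower, 1 higher), and the sums were 66 to 98 and 40 to 44. The 1 that was higher was Mbp, a myelin protein, at 3, 3 and 2 in sgLacZ and 7, 4 and 7 in sgKcna1. Sox9, a transcription factor of astrocytes, was listed at 235, 214 and 210 in sgLacZ and at 155, 141 and 151 in sgKcna1, and Olig2, a transcription factor of the oligodendrocyte lineage, at 19, 20 and 16 and at 9, 7 and 9, both without overlap. Of 6 markers of dividing cells, 0 were called, 5 had an unadjusted p under 0.05, all lower, and the sums were 99 to 101 and 55 to 60. Several microglial markers went the other way, with 1 of 7 called higher (C1qa) and 0 called lower. Of the 7, 4 had an unadjusted p under 0.05, all higher, and the lowest log2 fold change was -0.19. The microglial sums were 23 to 27 and 55 to 73. None of the astrocyte or dividing-cell markers was listed at 0 in any library, whereas 1 oligodendrocyte lineage marker and 2 microglial markers were at 0 in at least 1. Of the 5 neuronal markers 0 were called, 3 had an unadjusted p under 0.05 (1 higher, 2 lower), and their sums were 4113 to 4837 and 5225 to 6625. The median log2 fold change of these 5 was -0.02, within a range of -0.57 to 0.91, so the higher sum is not a rise of every marker. Of 6 excitatory neuron markers, 0 were called, 3 had an unadjusted p under 0.05 (2 higher, 1 lower), and the sums were 700 to 737 and 651 to 666. Of 6 inhibitory neuron markers 0 were called in limma, 3 had an unadjusted p under 0.05 (1 higher, 2 lower), and the sums were 259 to 279 and 253 to 304. The part of these cells in the Cacng4 value was not tested, and in bulk RNA fewer cells of a type and less RNA per cell cannot be told apart.

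Cacng4 lies between its relatives on chromosome 11 (NCBIM37, 107593671 to 107655871, minus strand), 80047 bp from Cacng5 and 15834 bp from Cacng1, a gamma subunit of muscle calcium channels that is no TARP. Cacng5 was listed at 5, 5 and 6 in sgKcna1 against 7, 11 and 6 in sgLacZ, giving a log2 fold change of -0.47 (SE 0.26, 95% interval -1.08 to 0.13) and an adjusted p of 0.303. Without sgLacZ replicate 2, the library at 11, the log2 fold change of Cacng5 was -0.24. Cacng1 was listed at 1, 2 and 1 in sgLacZ and at 2, 3 and 3 in sgKcna1, and neither it nor Cacng6, the other gamma subunit outside the TARPs, passed the threshold. A long noncoding gene on the opposite strand within Cacng4, Gm11650, was listed at 1 to 5 in all libraries. The methods give stranded reads, and both genes have values of their own, but whether the counting used the strand is not stated, so how reads were divided between them is not known here.

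The other members of the TARP family did not pass the threshold. Cacng2 was listed at 105, 77 and 109 in sgKcna1, a range that overlaps the sgLacZ values, giving a log2 fold change of -0.09 (SE 0.16, 95% interval -0.46 to 0.28). Cacng7 was listed at 143, 135 and 212 in sgKcna1, with both the lowest and the highest value of the 6 libraries, giving a log2 fold change of -0.11 (SE 0.20, 95% interval -0.58 to 0.37). These intervals allow a change in either direction, and the sign of both turned positive after upper-quartile rescaling. Cacng7 also spread most within a group, with an SD of 42.3 in sgKcna1 and 29.5 in sgLacZ.

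Among the receptor subunits, Gria1 and Gria3 separated the groups in opposite directions without passing the adjusted threshold. Gria1 was listed at 384, 333 and 344 in sgKcna1, each above the highest sgLacZ value of 319. Its means were 354 ± 26.8 and 302 ± 14.5 (SD, n = 3 each), giving a log2 fold change of 0.22 (SE 0.09, 95% interval 0.0088 to 0.44), an unadjusted p of 0.0434 and an adjusted p of 0.196 from limma. Gria3 was listed at 40, 50 and 37 in sgKcna1, each below the lowest sgLacZ value of 53. Its log2 fold change was -0.43 (SE 0.14, 95% interval -0.76 to -0.10), with an unadjusted p of 0.0184 and an adjusted p of 0.125. Unadjusted p-values under 0.05 were found in 23.2% of all genes tested, so those of both genes are read against that share.

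Gria2 was listed at 321, 244 and 269 in sgKcna1, a range that encloses the whole of the sgLacZ range. Its log2 fold change was -0.02 (SE 0.13, 95% interval -0.32 to 0.28), with an adjusted p of 0.956, and it was 0.068 and 0.099 after median-of-ratios and upper-quartile rescaling. Gria4 was listed at 18, 24 and 25 in sgKcna1, where replicate 1 lies within the sgLacZ range. Its log2 fold change was 0.31 (SE 0.17, 95% interval -0.08 to 0.70), with an adjusted p of 0.294.

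**Figure D3:**
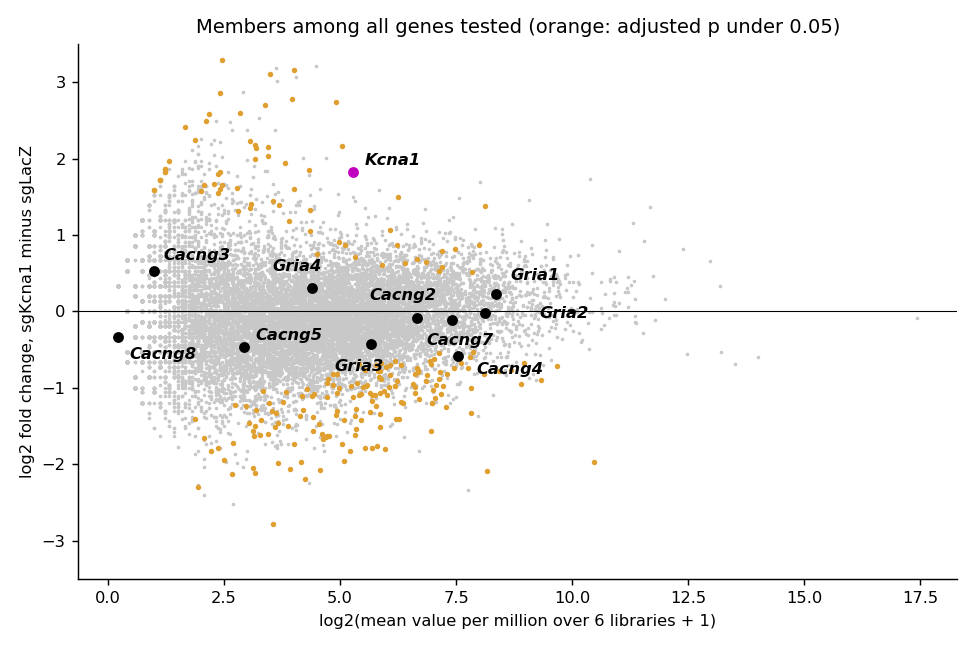
Log2 fold change (sgKcna1 minus sgLacZ) against log2(mean value + 1) for the 19504 genes tested, in grey, with genes at an adjusted p under 0.05 in orange, the members in black and Kcna1 in magenta. The members lie within the body of the grey points, and Cacng4, at -0.59, lies at its lower edge.

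Subunit make-up was compared within libraries, since a share does not depend on the scaling of a library. Gria1 made up 43.7%, 45.6% and 48.6% of the summed Gria value in sgLacZ and 50.3%, 51.2% and 51.0% in sgKcna1, a mean difference of 4.82 percentage points without overlap. The share of Gria3 was 8.68% ± 0.825 in sgLacZ and 6.13% ± 1.34 in sgKcna1 (SD, n = 3 each), also without overlap. The shares of Gria2, 42.6% ± 2.79 and 39.8% ± 2.30, overlapped, as did those of Gria4, 2.68% ± 0.116 and 3.25% ± 0.771 (SD, n = 3 each). Without sgLacZ replicate 1 the difference in the Gria2 share was -1.35 percentage points, and without sgKcna1 replicate 2 it was -1.68, against -2.84 with all libraries. The difference in the Gria4 share, 0.565 percentage points, was 1.01 without sgKcna1 replicate 1, where the groups no longer overlapped, and 0.347 and 0.338 without sgKcna1 replicates 2 and 3. The summed Gria value itself was 675, 642 and 656 in sgLacZ and 763, 651 and 675 in sgKcna1 (two-sided exact permutation test, p = 0.5).

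Cacng4 made up 42.5%, 44.1% and 45.2% of the summed TARP value in sgLacZ and 36.5%, 40.2% and 31.2% in sgKcna1, a mean difference of -7.97 percentage points without overlap. The share of Cacng2 was 20.2% ± 0.573 and 23.4% ± 2.65 without overlap, and that of Cacng7, 34.1% ± 1.71 and 39.0% ± 4.73, overlapped (SD, n = 3 each). The difference in the Cacng2 share, 3.20 percentage points, was 1.77 without sgKcna1 replicate 1, and that in the Cacng7 share, 4.91 percentage points, was 2.20 without sgKcna1 replicate 3. Shares of a sum depend on each other, and a lower share of one gene goes with higher shares of others. The summed TARP value was 569, 508 and 447 in sgLacZ and 400, 366 and 477 in sgKcna1 (two-sided exact permutation test, p = 0.2). Of the 8 shares tested, 4 did not overlap, each with p = 0.1 (two-sided exact permutation test, the smallest p that 3 libraries against 3 allow) and 0.2 after Benjamini-Hochberg adjustment over the 8. As log2 ratios to Gria2, 0 of the other Gria genes separated the groups, and as ratios to Cacng2, 1 TARP did, Cacng4, with a log2 ratio of 1.12 ± 0.0389 in sgLacZ and 0.62 ± 0.271 in sgKcna1 (SD, n = 3 each).

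**Figure D4:**
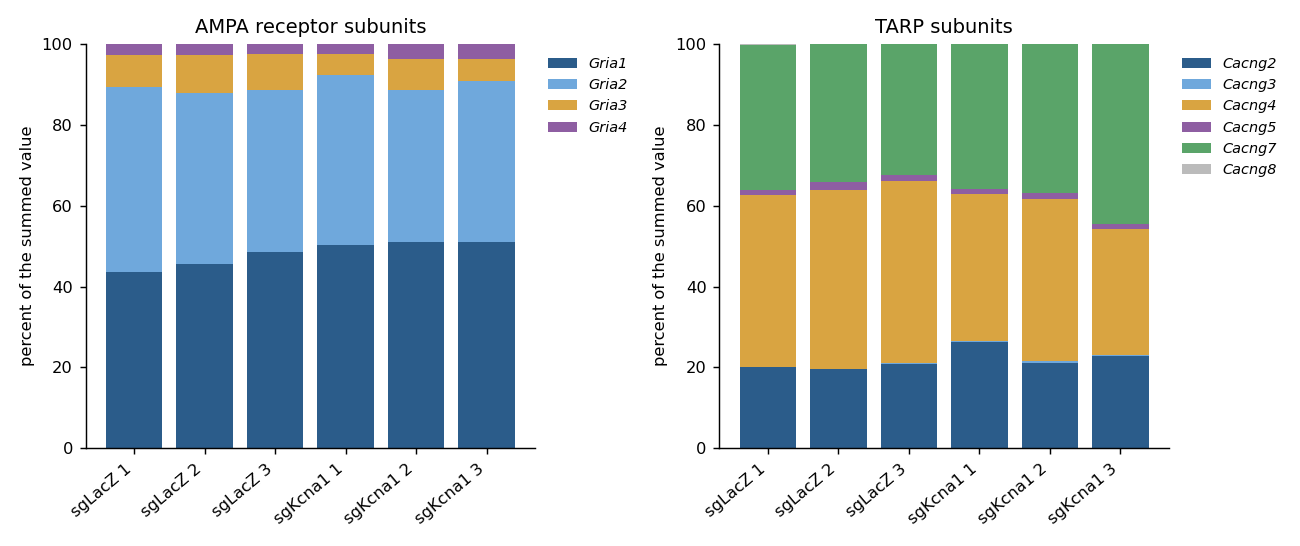
Stacked bars of each subunit as a percentage of the summed Gria value (left) or summed TARP value (right) in each library. The Gria1 segment is between 43.7% and 48.6% in sgLacZ and between 50.3% and 51.2% in sgKcna1, and the Cacng4 segment between 42.5% and 45.2% and between 31.2% and 40.2%.

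Lists of 43 accessory genes covered those that join, assemble, anchor and edit the receptors, their extracellular partners, and the 2 gamma subunits outside the TARPs described above. Of these, 0 had an adjusted p under 0.05 in limma, 16 had an unadjusted p under 0.05, 8 in each direction, beside 23.2% of all genes tested, and the median log2 fold change was 0.05. Groups did not overlap for 13 of the 31 genes averaging at least 10, close to the 39.8% of all such genes. At an adjusted p under 0.1, a limit added after the values were seen, 11 were called (3 higher, 8 lower), beside 11.6% of all genes tested (4.53% higher, 7.05% lower). All 11 are among the 31 averaging at least 10, and 20.2% of all genes at that level were called (7.13% higher, 13.1% lower). The number past 0.05 depended on the setting, with 9 genes (6 higher, 3 lower) after median-of-ratios rescaling, beside 8.81% of all genes, and 15 (7 higher, 8 lower) when only genes averaging at least 10 were tested, beside 28.4% of them.

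Of the 13 auxiliary subunits, 0 passed 0.05 and 4 passed the limit of 0.1, 2 in each direction, beside 11.6% of all genes. All 4 are among the 8 of the list averaging at least 10, beside 20.2% of all genes at that level. An unadjusted p under 0.05 was found for 6 of the 13, 4 higher and 2 lower, beside 23.2% of all genes. Of the higher ones, Shisa7 and Gsg1l had log2 fold changes of 0.86 and 0.94 and did not pass 0.1. After median-of-ratios rescaling Cnih3, Prrt1 and Shisa7 passed 0.05, all higher, so the balance rests on the limit and the scaling. Prrt1, a partner of the receptor at synapses, had the highest log2 fold change of the accessory genes averaging at least 10. It was listed at 49, 33 and 60 in sgLacZ and at 83, 77 and 97 in sgKcna1, with no overlap and a log2 fold change of 0.88 (SE 0.22, adjusted p = 0.0695 from limma). Prrt2, a proline-rich protein that also acts in transmitter release, was listed at 64, 59 and 45 and at 36, 38 and 32 without overlap, giving a log2 fold change of -0.64. Olfm2, a secreted olfactomedin protein, was listed at 63, 68 and 42 and at 30, 40 and 31 without overlap (log2 fold change -0.74, adjusted p = 0.0911 from limma). Of the cornichons, which help receptors leave the endoplasmic reticulum and slow their gating, Cnih3 was listed at 39, 33 and 39 and at 50, 46 and 60 without overlap (log2 fold change 0.48, adjusted p = 0.09997). Cnih2, the more abundant of them here, was listed at 131, 135 and 133 and at 162, 124 and 167 and overlapped.

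Of the 6 assembly genes, all averaging at least 10, 2 passed 0.1, beside 20.2% of all genes at that level. Frrs1l, whose product takes part in the early assembly of receptors in the endoplasmic reticulum, was listed at 112, 104 and 103 in sgLacZ and at 77, 73 and 83 in sgKcna1. All its sgKcna1 values were below its sgLacZ values, giving a log2 fold change of -0.45 (SE 0.10, adjusted p = 0.0556 from limma). Cpt1c, which joins Frrs1l in that assembly, was listed at 24, 17 and 24 and at 36, 33 and 32 without overlap, giving a log2 fold change of 0.63 (adjusted p = 0.0780 from limma). Of the 2 RNA-editing enzymes, 0 passed, and 0 had an unadjusted p under 0.05. Adarb1, which edits the pore codon of Gria2, was listed at 13, 12 and 8 and at 11, 8 and 12.

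Of the 15 scaffold and trafficking genes, 4 passed 0.1 and all 4 were lower, beside the 7.05% of all genes that were lower at that limit. All 4 are among the 12 of the list averaging at least 10, beside 13.1% of all genes at that level that were lower. At an unadjusted p under 0.05, 7 of the 15 passed, 3 higher and 4 lower. The 3 that were higher were Gripap1 and Epb41l1, with adjusted p-values of 0.10016 and 0.10004 just outside the limit and log2 fold changes of 0.75 and 0.50, and Akap5, with a log2 fold change of 0.85. After median-of-ratios rescaling, 5 of the list passed 0.05, Gripap1 and Epb41l1 higher and Dlg4, Nsf and Rab11a lower, so the one-sidedness rests on the limit and the scaling. Dlg4, which encodes the scaffold PSD-95, was listed at 338, 374 and 276 in sgLacZ and at 198, 217 and 227 in sgKcna1, with no overlap and a log2 fold change of -0.61 (SE 0.13, adjusted p = 0.0556 from limma). Nsf, an ATPase of membrane fusion that binds GluA2, was listed at 122, 117 and 105 and at 87, 69 and 73 without overlap, giving a log2 fold change of -0.58 (adjusted p = 0.0556 from limma). Rab11a, a GTPase of recycling endosomes, had the lowest log2 fold change of the accessory genes averaging at least 10. It was listed at 158, 132 and 83 and at 64, 66 and 52 without overlap, giving a log2 fold change of -0.98 (SE 0.24, adjusted p = 0.0646 from limma). The fourth was Dlg1, which encodes SAP97, a scaffold that binds GluA1, listed at 24, 18 and 15 and at 12, 11 and 11, giving a log2 fold change of -0.67. The scaffolds of the same family Dlg2 and Dlg3 overlapped between the groups. Arc, an activity-induced gene that drives receptor endocytosis, was listed at 1 in 1 library of each group and at 0 in the other 4.

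Of the 5 extracellular partners, 1 passed 0.1, beside 11.6% of all genes tested. That 1 is among the 3 of the list averaging at least 10, beside 20.2% of all genes at that level. It was the synapse organizer Lrrtm1, at 19, 15 and 13 in sgLacZ and 8, 11 and 7 in sgKcna1 without overlap, giving a log2 fold change of -0.79. The pentraxin receptor Nptxr, the most abundant of them, overlapped between the groups at 238 to 265 and 256 to 279.

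**Figure D5:**
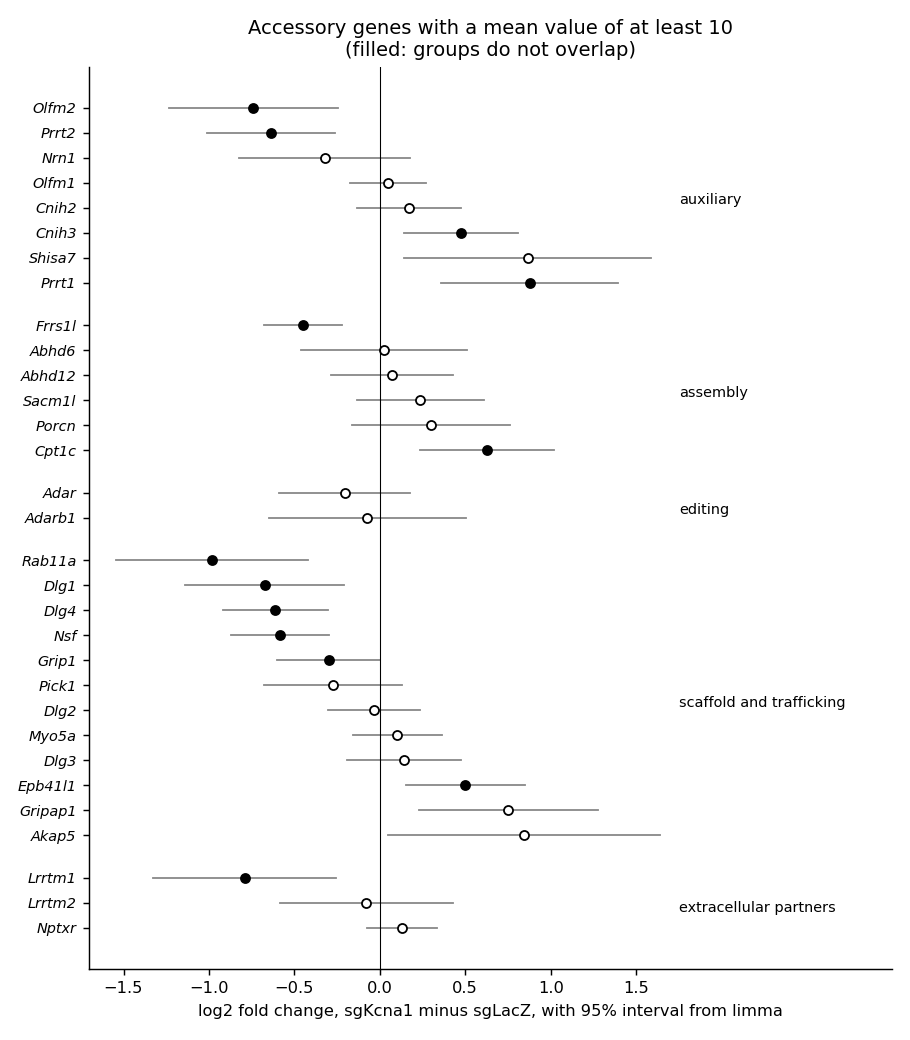
Log2 fold change (sgKcna1 minus sgLacZ) with its 95% interval from limma for the 31 accessory genes averaging at least 10, by list, with filled points where the groups do not overlap. Values run from -0.98 for Rab11a to 0.88 for Prrt1, on both sides of 0 in every list except the 2 editing genes, which lie at or below -0.07.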

How the data were processed

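RNA of 6 libraries (3 sgLacZ, 3 sgKcna1), made with a QuantSeq 3′ kit, was deposited by the authors as unlabelled columns of 1 whole-number score for each symbol. The scores sum to between 999047 and 999717 per library, so they were taken as per-million values rounded by the authors; the scaling is not given in the sources used here. The paper's methods name Bowtie2 and NCBI37/mm9 for these libraries, while the submitters' processing notes name STAR 2.7, featureCounts, DESeq2 and mm10. The alignment and counting that made the files are therefore uncertain, and gene positions are those of NCBIM37 (GENCODE vM1).

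Samples were grouped by their titles. The planned count test was replaced, as planned for such values, by limma 3.58.1 (R 4.3.3; eBayes with trend on, on lmFit) on log2(value + 1). It was fitted on the 19504 genes with a value above 0 anywhere, with no term but group, and p-values were adjusted over all of them by Benjamini-Hochberg. The fit was tested on simulated data. Shares and sums were compared with two-sided exact permutation tests over libraries in Python 3.11.15. The depth in reads is unknown, so no counting intervals are given.

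The members, lists and settings were chosen with earlier results of these data known. Named genes were the members, Kcna1, accessory genes past the threshold, the accessory genes with the highest and lowest log2 fold change among those averaging at least 10, and the 3 genes most correlated with each summed value. Other accessory genes, cell type markers, Actb, Gapdh, Ppia and Gm11650 were named after their values were seen. The pseudocount, the low-value filter, the scaling, the variance prior, the replicate block and the set of libraries (each left out) were varied.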

Additional observations from a re-analysis of the deposited data

How the results depend on the processing

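The number of genes called among all genes was 226 as reported and 10 with a pseudocount of 0.5. It was 1543 and 2289 with mean values of at least 1 and 10, and 2405 without a filter. Rescaling gave 1719 with median-of-ratios, 2058 with upper-quartile and 1768 without Gm42418. The number was 2884 with a robust variance prior, 201 without an intensity trend and 0 with the replicate block. At an adjusted p under 0.1 it was 2258, and with each library left out it was 0 to 2711. The accessory genes called, 0 as reported, were 6, 15, 10, 9, 11, 9 and 15 in those filters (1, 10, none), rescalings (median-of-ratios, upper-quartile, without Gm42418) and the robust prior, 11 at an adjusted p under 0.1 and 0 to 13 with each library left out. The members called, 1 as reported, were 0 with a pseudocount of 0.5, without an intensity trend and with the replicate block, and 0 to 1 with each library left out. The member called, where there was one, was always Cacng4. Log2 fold changes turned positive for Gria2 (0.068 median-of-ratios, 0.099 upper-quartile, and -0.13 to 0.069 with each library left out), Cacng2 (0.030 upper-quartile, -0.18 to 0.069) and Cacng7 (0.012 upper-quartile, -0.31 to 0.015). Those of Gria1, Gria3, Gria4 and Cacng4 kept their sign in all 16 alternatives, and that of Cacng5 in the 15 that tested it. The 4 shares that separated the groups became 4 to 7 with each library left out. Leaving out a library cannot undo a separation, so that number could not fall below 4 and says nothing of stability. As log2 ratios to Gria2 the number was 0. As ratios to Cacng2, an alternative added because Cacng8, the planned reference, was at 0, it was 1. The share of Cacng5 turned from -0.29 to 0.0051 percentage points without sgLacZ replicate 2, within a range of -0.46 to 0.0051. Kcna1 had a log2 fold change of 1.73 to 1.99 with each library left out, but its adjusted p from limma was under 0.05 only without sgLacZ replicate 3 (0.0186) and 0.112 to 0.143 in the other 5 cases. The cause of these differences was not tested.

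Replicate numbers came from the labels, which do not say that they pair the cultures. Correlations of deviations from the group means between same-numbered libraries were 0.014 to 0.154 over 8050 genes, and 5 of 6 libraries correlated best with their own number, a hint from the data and not from the design. With the replicate block the adjusted p from limma was 0.111 for Cacng4 and for Kcna1, whose log2 fold change stayed at 1.83, and 0 genes were called, with 4326 at an unadjusted p under 0.05. DESeq2 and edgeR were not run because the values are not counts. Rounding to whole numbers limits what can be seen of Cacng3, Cacng5 and Cacng8.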

Other observations

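The genes whose log2 values over the 6 libraries were most like the summed Gria value, among 8043 genes other than the members with a mean value of at least 10, were Rubcn (Pearson r = 0.959), Trim2 (0.954) and Diaph2 (0.953). For the summed TARP value they were Sema6d (0.993), Rnf114 (0.992) and Arl15 (0.991), and 232 genes had an r above 0.9, against 16 for the summed Gria value. With 6 libraries that share 2 groups these values are a description.

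The TARP genes Cacng7 and Cacng8 lie in a row on chromosome 7 with Cacng6, a gamma subunit that is no TARP, at gaps of 26756 bp between Cacng7 and Cacng8 and 10056 bp between Cacng8 and Cacng6 (NCBIM37). Their listed values differed widely in spite of that: Cacng7 stood at 135 to 212 over all libraries, Cacng8 at 0 or 1, and Cacng6 at 1 in sgKcna1 replicate 1 and at 0 elsewhere.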
